A study of Mus musculus with 6 samples.

Results

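The 8 genes described here encode the enzymes and carriers with which muscle makes, converts and moves glutamine, alanine, glutamate and aspartate: Glul, Gpt, Gpt2, Got1, Got2, Slc38a2, Slc7a5 and Slc3a2. They were chosen by name, as all transcript rows of the expression table with one of these symbols, which gave 8 of 33641 gene symbols and 32 of 105129 transcript rows. Quadriceps muscle of male mice aged 4 months was sequenced after poly-A selection. One group of 3 mice was homozygous for an rs6190 allele, a mouse copy of a human variant of the glucocorticoid receptor gene, and the other group of 3 mice was homozygous for the reference allele (WT). All were littermates of heterozygous parents, harvested at about ZT4, or 4 hours after lights on. The labels name no treatment, and they do not say which mice of the 2 groups shared a litter.

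Muscle exports nitrogen to liver, gut and kidney mainly as glutamine and alanine. Aminotransferases pass the amino group of one amino acid to a keto acid: the GOT enzymes interconvert aspartate and glutamate, and the GPT enzymes interconvert alanine and glutamate, each as a cytosolic and a mitochondrial form. Glutamine synthetase, the product of Glul, adds ammonia to glutamate and is a textbook glucocorticoid-induced enzyme of muscle. The carrier SLC38A2 takes up small neutral amino acids with sodium, and SLC7A5 bound to SLC3A2 exchanges intracellular glutamine for leucine and other large neutral amino acids.

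The libraries were not alike in fibre-type markers, and WT replicate 3 stood apart. The 11 slow-fibre genes summed to 1902, 9714 and 2241 TPM (transcripts per 1000000 transcripts, an abundance corrected for transcript length) in homozygous replicates 1, 2 and 3 and to 1738, 1123 and 245 TPM in WT replicates 1, 2 and 3. The 12 fast-fibre genes summed to between 96718 and 131342 TPM in 5 libraries and to 230661 TPM in WT replicate 3. Of these genes, Myh1 and Myh2 went the other way and were lowest in WT replicate 3. Myh1 gave 1183, 1253 and 942 TPM for homozygous and 464, 315 and 239 TPM for WT replicates 1 to 3. Myh2 gave 593, 728 and 478 TPM against 361, 272 and 122 TPM. The 6 skeletal muscle markers were detected in every library, as the tissue label requires, with sums from 43654 to 69524 TPM. The slow-fibre sums did not overlap between groups, and were closest at 1902 TPM (homozygous replicate 1) and 1738 TPM (WT replicate 1). Among the 11 genes, Myl3, Tnnt1, Casq2 and Myh7b overlapped between groups. The sums were spread most by homozygous replicate 2 and WT replicate 3. Over all genes tested, 34.7% did not overlap, with homozygous muscle above. The slow-fibre sums were thus separated by genotype only narrowly, but a covariate built on these genes is not free of genotype. Of the other marker lists, the 5 Schwann cell genes did not overlap between groups, at 28.8 to 104.6 TPM in homozygous and 16.1 to 25.1 TPM in WT muscle. The adipocyte, blood, immune, endothelial and fibroblast lists overlapped. The part of these markers in the results below was not tested except where a value is given. Bulk RNA cannot tell apart fewer cells of a type and less RNA per cell. TPM carries no read counts, so the depth behind each value is unknown.

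Of the 8 genes, 4 enzymes were abundant. Over the 6 libraries the mean was 191 ± 33.2 TPM for Got2, 149 ± 35.3 for Got1, 138 ± 29.2 for Glul and 127 ± 24.9 for Gpt2 (SD, n = 6), which placed them above 94.3% to 96.0% of the 11099 genes tested. The carrier genes Slc38a2 and Slc3a2 were at 28.8 ± 7.11 and 19.4 ± 1.63 TPM, Gpt was at 13.4 ± 2.41 TPM, and Slc7a5 was at 0.787 ± 0.374 TPM. Got2 exceeded Got1 in 6 of 6 libraries, by 1.05-fold to 1.53-fold. The order of Got1, Glul and Gpt2 held in only 5 of 6 libraries for each neighbouring pair, and their mean log2 ratios of 0.11 ± 0.51 and 0.12 ± 0.21 lay within the spread (SD, n = 6). Slc38a2 exceeded Slc3a2 in 5 of 6 libraries, Slc3a2 exceeded Gpt in 6, and Gpt exceeded Slc7a5 in 6 by at least 9.29-fold.

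**Figure D1:**
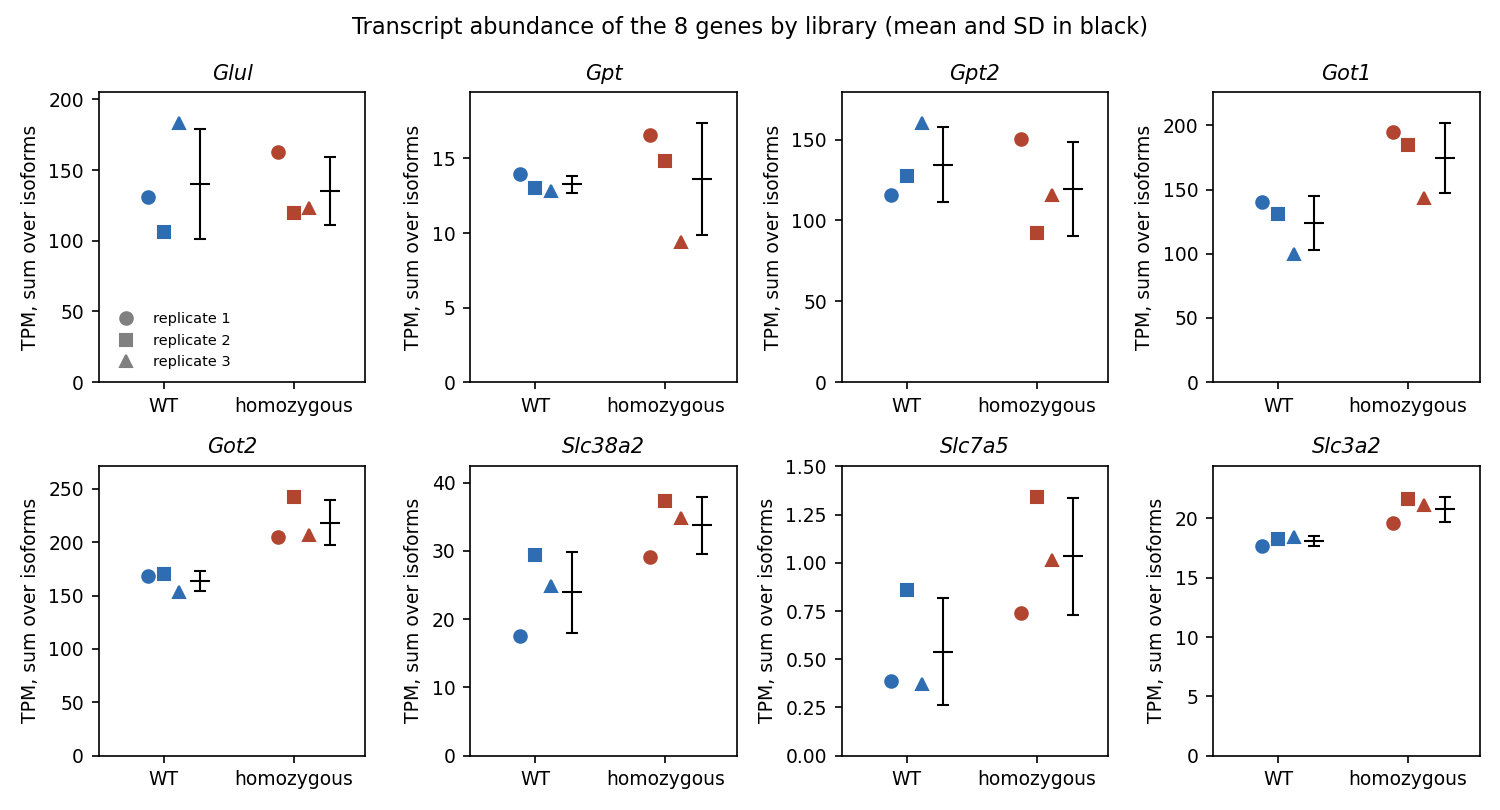
Abundance in TPM, summed over the isoforms of each gene, for the 8 genes in 3 WT (blue) and 3 homozygous (red) libraries, with a marker shape per replicate number and mean and SD in black. Got1, Got2 and Slc3a2 show groups that do not touch, while Glul, Gpt and Gpt2 overlap widely and Slc7a5 stays near 1 TPM.

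No gene of the 8 passed the test for a difference between genotypes. Of the 7 that reached the filter of 1 TPM in at least 3 libraries, 0 had a Benjamini-Hochberg adjusted p under 0.05 in limma, as for all genes (0 of 11099, or 0%). At an unadjusted p under 0.05 in limma there were 3 of the 7 (Got1, Got2 and Slc38a2), where the share over all genes tested was 24.3%. These 3 were higher in homozygous muscle (23.7% of all genes tested) and 0 were lower (0.55%). The groups did not overlap for 3 of the 7 (Got1, Got2 and Slc3a2), again with the homozygous libraries above, against 34.7% of all genes tested, and 0 were separated with the homozygous libraries below (0.73%). The log2 fold change was above 0 for 5 of the 7, and for 85.8% of all genes tested. The median log2 fold change, on the scale of log2(TPM + 1) and as homozygous minus WT, was 0.19 for the 7 genes and 0.26 for all genes. Of the 7, Got1, Got2 and Slc38a2 lay above that median. Median centring or quantile normalization brought the count of 3 at an unadjusted p under 0.05 to 0, as did leaving out homozygous replicate 2.

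Got1 encodes the cytosolic aspartate aminotransferase (chromosome 19, 43499752 to 43524605, minus strand, GRCm38). Homozygous replicates 1 to 3 gave 195, 185 and 143 TPM, and WT replicates 1 to 3 gave 140.1, 131 and 100.1 TPM. The lowest homozygous library lay just above the highest WT library, and WT replicate 3 was the lowest of all. The homozygous mean of 174 ± 27.4 TPM was 1.41 times the WT mean of 124 ± 20.99 TPM (SD, n = 3 mice per genotype). On the log2 scale the difference was 0.49 (SE 0.18, 95% interval 0.076 to 0.91) and missed the threshold (limma, adjusted p 0.178). It was 0.35 without WT replicate 3, 0.25 with the slow-fibre score as a covariate and 0.19 after median centring.

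Got2 encodes the mitochondrial aspartate aminotransferase (chromosome 8, 95864134 to 95888547, minus strand). Its transcripts reached 205, 243 and 206.8 TPM in homozygous replicates 1 to 3, where WT replicates 1 to 3 had 168, 169.7 and 153 TPM. The gap between the groups was wider than for Got1, and again WT replicate 3 was lowest. The mean of 218 ± 21.2 TPM in homozygous muscle was 1.33 times that of 164 ± 9.36 TPM in WT muscle (SD, n = 3 mice per genotype). This gave a log2 fold change of 0.41 (SE 0.13, 95% interval 0.11 to 0.71) with an adjusted p of 0.168 in limma. Without WT replicate 3 it was 0.36, with the slow-fibre covariate 0.25 and after median centring 0.11. The ratio of Got2 to Got1 within a library, which does not depend on library scaling, was 1.05, 1.31 and 1.44 for homozygous and 1.20, 1.30 and 1.53 for WT replicates 1 to 3, and the genotypes overlapped.

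Glul showed no separation between genotypes (chromosome 1, 153899944 to 153909723, plus strand). It stood at 163, 119.7 and 123 TPM in homozygous replicates 1 to 3, beside 131, 107 and 183 TPM in WT replicates 1 to 3. The highest and the lowest of the 6 were both WT libraries, replicate 3 and replicate 2. Homozygous mice averaged 135 ± 23.9 TPM and WT mice averaged 140.2 ± 39.2 TPM (SD, n = 3 mice per genotype). Homozygous minus WT, the log2 difference was -0.030 (SE 0.22) and did not pass (limma, adjusted p 0.935). Its 95% interval ran from -0.54 to 0.48 and holds differences of either sign. The sign turned without WT replicate 3 (0.18) and with the slow-fibre covariate (0.35).

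Gpt2, the mitochondrial alanine aminotransferase (chromosome 8, 85492576 to 85527560, plus strand), also overlapped between genotypes. Homozygous replicates 1 to 3 held 150.1, 92.3 and 116 TPM of it, and WT replicates 1 to 3 held 116, 127 and 160.2 TPM. Its highest value, like that of Glul, was in WT replicate 3, and its lowest was in homozygous replicate 2. The fitted log2 difference was -0.18 (SE 0.21, 95% interval -0.66 to 0.29; limma, adjusted p 0.561). With 1 library left out at a time it ran from -0.36 (without homozygous replicate 1) to -0.012 (without homozygous replicate 2), and it was -0.050 without WT replicate 3. The slow-fibre covariate turned it to 0.23.

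Gpt, the cytosolic alanine aminotransferase (chromosome 15, 76695716 to 76699686, plus strand), had a single transcript row. Its 3 homozygous values were 16.6, 14.8 and 9.42 TPM, and its 3 WT values were 13.9, 13.0 and 12.8 TPM, for replicates 1 to 3. The WT values lay inside the range of the homozygous ones. Homozygous minus WT, the log2 difference was 0.0014 (SE 0.20, 95% interval -0.47 to 0.47; limma, adjusted p 0.997). Gpt2 was thus the main alanine aminotransferase transcript, at 9.04, 6.21 and 12.3 times Gpt for homozygous and 8.29, 9.76 and 12.5 times Gpt for WT replicates 1 to 3, with overlapping genotypes.

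**Figure D2:**
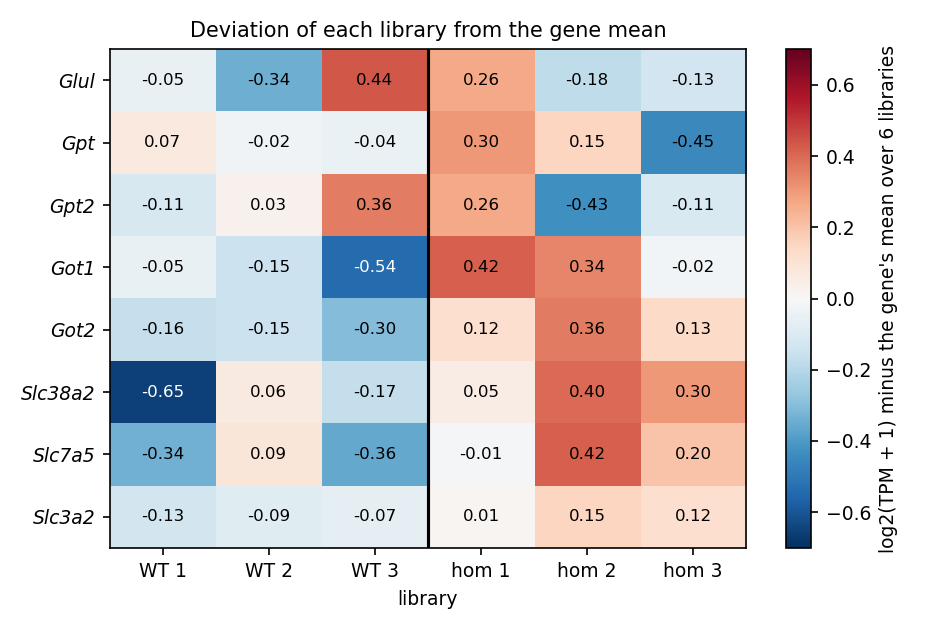
Deviation of log2(TPM + 1) in each library from the gene's mean over the 6 libraries, for the 8 genes (rows), with WT libraries left of the line and homozygous (hom) libraries right of it. In the column of WT replicate 3, Glul (0.44) and Gpt2 (0.36) are above their means while Got1 (-0.54), Got2 (-0.30) and Slc7a5 (-0.36) are below.

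The plot of deviations shows that the 4 abundant enzymes did not vary as a block. WT replicate 3 was the library with the smallest slow-fibre sum and the largest fast-fibre sum, though with the least Myh1 and Myh2. In it, Glul and Gpt2 were at their highest and Got1 and Got2 at their lowest. In homozygous replicate 2, the library with the most slow-fibre signal, Gpt2 was at its lowest and Got2 at its highest. Got1 and Glul did not follow there: Got1 was highest in homozygous replicate 1 and Glul was lowest in WT replicate 2. The ratio of Glul to Got1 was 0.834, 0.648 and 0.859 for homozygous and 0.933, 0.814 and 1.83 for WT replicates 1 to 3. The groups overlapped, and the difference in mean log2 ratio of -0.53 was -0.17 without WT replicate 3.

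Among the carriers, Slc38a2 (chromosome 15, 96687392 to 96699730, minus strand) gave 29.2, 37.3 and 34.9 TPM for homozygous and 17.5, 29.3 and 24.9 TPM for WT replicates 1 to 3. The groups touched, since WT replicate 2 lay just above homozygous replicate 1. The mean of 33.8 ± 4.18 TPM in homozygous muscle was 1.41 times that of 23.9 ± 5.99 TPM in WT muscle (SD, n = 3 mice per genotype). Its log2 fold change was 0.50 (SE 0.20, 95% interval 0.042 to 0.97) and did not pass (limma, adjusted p 0.190). It was 0.30 without WT replicate 1, the lowest library. Array weights in limma were 2.5, 0.823 and 0.199 for WT replicates 1 to 3, so the lowest library for this gene counted most among the WT libraries. With these weights the log2 fold change was 0.76 (limma, adjusted p 0.0458). Slc38a2 was the single gene of the 8 to pass in that fit, in which 810 genes passed.

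Slc7a5, the light chain that carries leucine and glutamine (chromosome 8, 121881150 to 121907694, minus strand), was barely detected. Homozygous replicates 1 to 3 had 0.742, 1.34 and 1.01 TPM, and WT replicates 1 to 3 had 0.389, 0.861 and 0.370 TPM. It reached 1 TPM in homozygous replicates 2 and 3 and in no WT library, so it was not among the genes tested. In the limma fit without a filter the log2 fold change was 0.41 (SE 0.18, 95% interval -0.029 to 0.84, adjusted p 0.344). The groups overlapped, and on the log2(TPM + 1) scale a difference in so low a gene is understated. The gene lies wholly within Gm20388 on the opposite strand, which was more abundant in every library, and no source used here says whether reads were assigned by strand.

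Slc3a2, the heavy chain that brings SLC7A5 and related light chains to the cell surface (chromosome 19, 8706882 to 8723369, minus strand), varied least. Replicates 1 to 3 were at 19.6, 21.6 and 21.1 TPM when homozygous and at 17.7, 18.2 and 18.4 TPM when WT. Every homozygous library was above every WT library, by little. The means of 20.8 ± 1.06 TPM (homozygous) and 18.1 ± 0.402 TPM (WT; SD, n = 3 mice per genotype) gave a log2 difference of 0.19 (SE 0.12, 95% interval -0.090 to 0.46; limma, adjusted p 0.331). This lay below the median of all genes, and the sign turned to -0.11 after median centring, to -0.095 with quantile normalization and to -0.023 with a transcript length trend removed. The heavy chain was far more abundant than the light chain: Slc7a5 was 0.0379, 0.0621 and 0.0480 times Slc3a2 for homozygous and 0.0220, 0.0473 and 0.0201 times Slc3a2 for WT replicates 1 to 3, with overlapping genotypes.

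**Figure D3:**
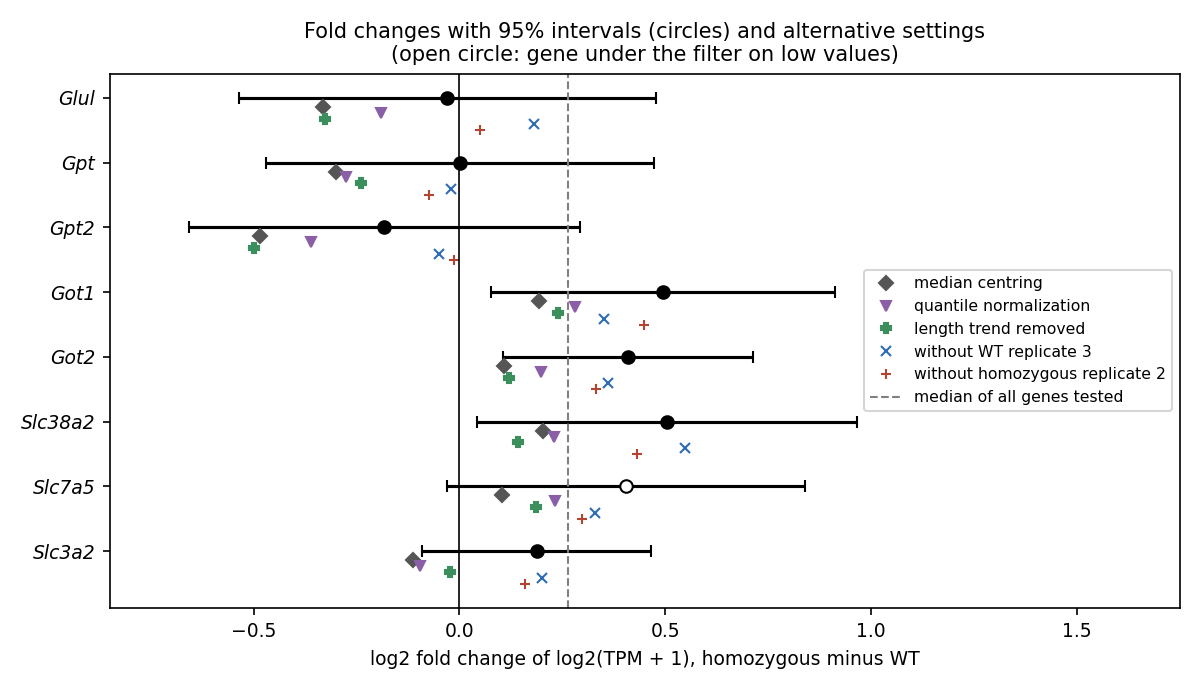
Log2 fold change of log2(TPM + 1), homozygous minus WT, with its 95% interval (circles, with an open circle for Slc7a5 from the fit without a filter), and the same value under 5 alternative settings (coloured marks). The intervals of Got1, Got2 and Slc38a2 lie above 0 but all 8 include the median of all genes (dashed, 0.26), and the marks for median centring lie left of every circle.

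The 32 isoform rows of the 8 genes were examined next. Of these, 3 were listed at 0 in every library, and 22 reached the filter. None of the 22 passed the threshold in limma (over all isoforms tested, 9 of 21165 did, or 0.0425%). At an unadjusted p under 0.05 in limma there were 4 (15.7% of all isoforms tested), of which 3 were higher in homozygous muscle (14.2% of all isoforms tested) and 1 was lower (1.52%). The log2 fold change was above 0 for 13 of the 22 (76.7% of all isoforms tested). The groups did not overlap for 3 isoforms with homozygous muscle above (25.6% of all) and for 2 with it below (2.11%). Each gene but Slc3a2 and Gpt2 drew over 90% of its summed TPM, averaged over libraries, from 1 protein-coding isoform.

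The Got1 isoforms had log2 fold changes of opposite sign. The full-length protein-coding isoform (ENSMUST00000026196.13, 9 exons) gave 186, 173 and 131 TPM for homozygous and 127, 117 and 84.1 TPM for WT replicates 1 to 3. A short isoform of 661 nt and 3 exons (ENSMUST00000132504.1, annotated as a retained intron) gave 5.80, 7.79 and 5.90 TPM for homozygous and 9.23, 13.5 and 15.8 TPM for WT replicates 1 to 3. Every homozygous library was above every WT library for the former and below every WT library for the latter. The log2 fold changes were 0.58 (SE 0.21; limma, adjusted p 0.295) and -0.86 (SE 0.23; limma, adjusted p 0.263), and neither passed. That of the short isoform stayed negative in all 12 alternative fits, between -1.13 and -0.66. Its share of the summed Got1 signal was 2.97%, 4.22% and 4.11% for homozygous and 6.58%, 10.3% and 15.8% for WT replicates 1 to 3.

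The intron kept in the short Got1 isoform is shown because it is what the isoform is annotated for. An exon of this isoform runs through the 88 bases between exons 6 and 7 of the 9 in the full-length isoform (chr19:43504688-43504775, minus strand). The stretch below (chr19:43504667-43504796, GRCm38, GENCODE M21) gives the intron in capitals, from its first GT to its last AG, with 21 exon bases on either side in lower case.
Got1 retained intron: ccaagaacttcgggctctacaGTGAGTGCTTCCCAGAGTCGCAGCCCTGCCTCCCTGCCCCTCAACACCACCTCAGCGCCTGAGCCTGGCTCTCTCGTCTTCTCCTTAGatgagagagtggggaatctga
The table assigns TPM to whole transcript models, so the values do not count reads across this intron. Over the whole table, 2680 tested isoforms were annotated as retained introns, with a median log2 fold change of 0.22 and 2.69% without overlap and lower in homozygous muscle.

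A further Got1 isoform (ENSMUST00000133325.7), annotated as a target of nonsense-mediated decay, was at 3.29, 2.95 and 6.06 TPM in homozygous replicates 1 to 3 and at 2.96 TPM in WT replicate 1. WT replicates 2 and 3 list it at 0. The groups overlapped narrowly, and its log2 fold change of 1.64 (SE 0.58) did not pass (limma, adjusted p 0.292). Of Got2, the main isoform (ENSMUST00000034097.7) made up 98.5% on average and had a log2 fold change of 0.41 (SE 0.13), as the gene did.

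Slc3a2 was the gene with the most divided signal, over 8 isoforms above 0 in at least 1 library. The one with the largest mean share over the 6 libraries (ENSMUST00000010239.5) held 47.1%, 52.4% and 40.9% of the sum for homozygous and 56.2%, 30.9% and 33.3% for WT replicates 1 to 3. Another (ENSMUST00000206598.1) lacks its first exon and starts 82 bases upstream of its exon 2. That isoform gave 4.396, 2.69 and 5.56 TPM for homozygous and 5.57, 6.64 and 9.75 TPM for WT replicates 1 to 3, and in WT replicates 2 and 3 it exceeded the former, which was at 5.64 and 6.15 TPM there. Every homozygous library was below every WT library, though homozygous replicate 3 and WT replicate 1 were almost equal. The difference of -0.68 on the log2 scale (SE 0.29) did not pass (limma, adjusted p 0.324). Another isoform, of 10 exons (ENSMUST00000170157.7), had 1.598, 2.03 and 1.61 TPM in homozygous replicates 1 to 3, all above the 1.11, 1.44 and 1.05 TPM of WT replicates 1 to 3 (log2 fold change 0.32, SE 0.20; limma, adjusted p 0.424).

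Gpt2 had a second sizeable isoform (ENSMUST00000140189.7, annotated as a retained intron), which starts 181 bases before exon 7 of the 12 in the main isoform and ends in exon 10. It held 22.3%, 16.8% and 17.2% of Gpt2 for homozygous and 22.3%, 21.5% and 11.5% for WT replicates 1 to 3. The shares overlapped. In Glul the main isoform (ENSMUST00000086199.11) held 88.4% to 96.2% of the sum, and the 4 minor isoforms were each at 10.1 TPM or less in every library, with overlapping groups.

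**Figure D4:**
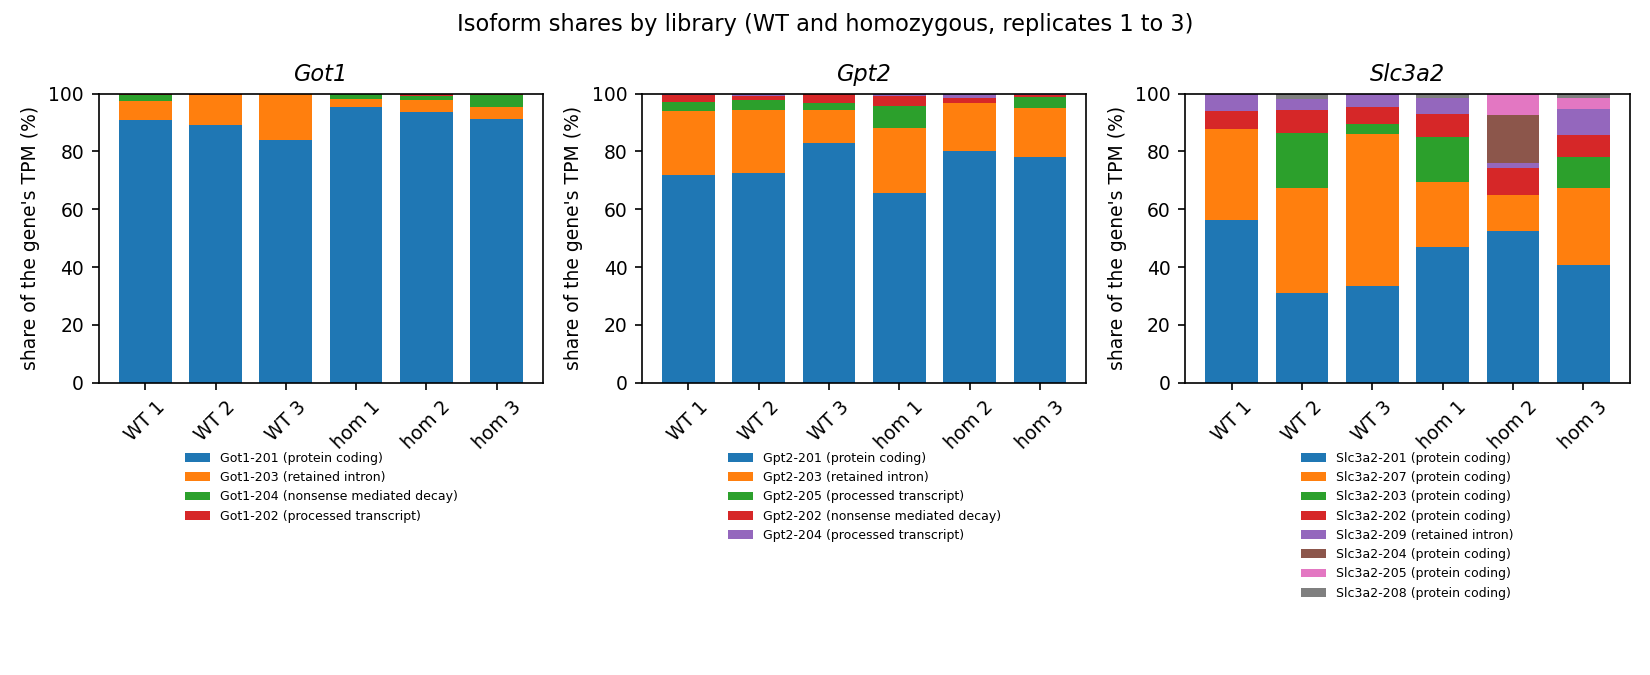
Share of each isoform in the summed TPM of Got1, Gpt2 and Slc3a2 (%), by library, with WT left and homozygous (hom) right and the annotated transcript type in the key. The retained-intron isoform of Got1 (orange, left panel) takes 6.58% to 15.8% in the WT and 2.97% to 4.22% in the homozygous libraries, while the Slc3a2 panel changes from library to library within each group.

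Upstream sequence was read for the genes with a RefSeq promoter entry, because the variant lies in a DNA-binding receptor and Slc38a2 and related genes are known to respond to amino acid supply through ATF4. Of the 8 genes, 6 had an entry (GRCm38.p6, 250 bases before to 50 after the start): Glul, Gpt2, Got1, Got2, Slc38a2 and Slc3a2. The Slc3a2 start used lies 9472 bases downstream of the start of the gene in GENCODE M21. Sequence outside these windows, introns included, was not searched. Both strands were searched for the glucocorticoid response element form AGAACANNNTGTNC, for its first arm AGAACA alone, which the longer form contains, for the ATF4 element TGATGNAA and for the E-box CACGTG. Of 32817 promoter windows of the same length, 0.140%, 19.0%, 3.97% and 7.15% held these motifs. The 6 windows held 1 match in all, an ATF4 element 102 bases before the Got1 start. It lies on the strand opposite to Got1, and so reads TTGCATCA in the direction of the gene. Got1, which has the match, and Glul, the textbook glucocorticoid target without one, are shown over the 250 bases before their starts, at chr19:43524606-43524855 (minus strand) and chr1:153899679-153899928 (plus strand), with the match in capitals.
Got1: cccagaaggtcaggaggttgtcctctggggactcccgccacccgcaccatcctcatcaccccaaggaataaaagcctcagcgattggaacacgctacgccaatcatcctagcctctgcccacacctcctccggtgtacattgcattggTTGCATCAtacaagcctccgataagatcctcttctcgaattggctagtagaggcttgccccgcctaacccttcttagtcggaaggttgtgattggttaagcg
Glul: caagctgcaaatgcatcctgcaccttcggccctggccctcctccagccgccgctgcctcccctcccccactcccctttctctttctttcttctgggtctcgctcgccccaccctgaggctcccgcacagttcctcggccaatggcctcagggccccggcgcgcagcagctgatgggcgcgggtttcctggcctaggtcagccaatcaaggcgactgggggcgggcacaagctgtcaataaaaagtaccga
A match is a description of letters in this window and shows neither binding nor its absence.

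The rest of the pathway was described with 4 lists. None of their genes passed the threshold in limma (the smallest adjusted p was 0.168 in each list). All genes of these lists at an unadjusted p under 0.05 were higher in homozygous muscle, as were 2636 of the 2697 such genes over the whole table. The counts below are to be read against the share of all genes tested at an unadjusted p under 0.05 (24.3%) and the share without overlap and higher in homozygous muscle (34.7%).

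Of 20 other amino acid carriers, 14 were tested. Of these 14, 2 had an unadjusted p under 0.05 in limma (24.3% of all genes tested) and 3 had groups that did not overlap (34.7%), both below the share over all genes. The list median was 0.34, beside 0.26 for all genes. The largest value was that of Slc7a6, a light chain that also pairs with SLC3A2, with 6.10, 9.60 and 10.6 TPM for homozygous and 3.07, 4.81 and 4.19 TPM for WT replicates 1 to 3 (log2 fold change 0.94, SE 0.23). It was above Slc7a5 in each of the 6 libraries. Slc1a5, a glutamine exchanger, was at 0.53 and Slc43a2, a leucine carrier, at 0.51, both with overlapping groups. Slc38a4, a relative of Slc38a2, had the opposite sign, at -0.48, with overlapping groups.

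Of 25 enzymes that use or make glutamine, glutamate and aspartate, 21 were tested. Of these 21, 4 had an unadjusted p under 0.05 in limma (24.3% of all genes tested) and 5 had groups that did not overlap (34.7%), again below the share over all genes. The median was 0.31. Ctps2, which uses glutamine to make CTP, gave 7.09, 14.1 and 10.96 TPM for homozygous and 3.72, 4.12 and 3.22 TPM for WT replicates 1 to 3 (log2 fold change 1.28, SE 0.23). Glud1, the glutamate dehydrogenase, was at 48.5, 53.7 and 48.5 TPM against 38.0, 35.6 and 27.5 TPM (log2 fold change 0.57), with groups that did not overlap. Aldh18a1, which starts proline synthesis from glutamate, was at 0.88 and Gfpt2, which opens the hexosamine pathway, at 0.60, both with overlapping groups.

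GOT1 and GOT2 take part in the malate-aspartate shuttle, which moves reducing equivalents into mitochondria. Of 10 listed genes of this shuttle and of other mitochondrial carriers, 8 were tested. Of these 8, 4 had an unadjusted p under 0.05 in limma (24.3% of all genes tested) and the same 4 had groups that did not overlap (34.7%). They were Mdh1 (0.69), the cytosolic malate dehydrogenase, Slc25a44 (0.58), a carrier of branched-chain amino acids, Slc25a12 (0.47), an aspartate-glutamate carrier, and Mpc1 (0.37), a subunit of the pyruvate carrier. Mdh1 gave 529, 511 and 374 TPM for homozygous and 365, 321 and 205 TPM for WT replicates 1 to 3, the same order of libraries within each group as Got1. Mdh2, the mitochondrial malate dehydrogenase, was at -0.030 with overlapping groups. The list median was 0.31, and 0.0055 after median centring.

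Of 24 genes of the ATF4 amino acid response, 19 were tested. Of these 19, 8 had an unadjusted p under 0.05 in limma (24.3% of all genes tested), and the same number had groups that did not overlap, a share near that of all genes (34.7%). The median was 0.37. The log2 fold change was above 0 for 16 of the 19 (85.8% of all genes tested) and lowest for Ddit4, at -0.42 with overlapping groups. The stress factor Atf3 gave 5.54, 12.8 and 6.42 TPM for homozygous and 1.93, 2.02 and 2.30 TPM for WT replicates 1 to 3 (95% interval of the log2 fold change 0.87 to 2.14). The pseudokinase gene Trib3 was at 1.07, 1.15 and 2.40 TPM against 0.508, 0.216 and 0.233 TPM (log2 fold change 0.91). Sesn2 was at 1.11, 1.36 and 1.26 TPM against 0.841, 0.852 and 0.675 TPM. Trib3 and Sesn2 are both counted among the genes without overlap. Both reached the filter only through the homozygous libraries, so their groups could not overlap once they were tested. Mthfd2, of mitochondrial folate metabolism, was at 1.05 with overlapping groups, and the lipoprotein receptor gene Vldlr was at 0.94 without overlap. Atf4 itself was at 130.3, 154 and 171 TPM against 131, 115 and 134 TPM, with overlapping groups (log2 fold change 0.25; limma, adjusted p 0.298). Asns, the glutamine-using asparagine synthetase, was below the filter, at 0.924, 0.765 and 1.89 TPM against 1.16, 0.109 and 0.630 TPM. The count of 8 was 3 after median centring or quantile normalization, 2 with the slow-fibre covariate and 4 without homozygous replicate 2.

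**Figure D5:**
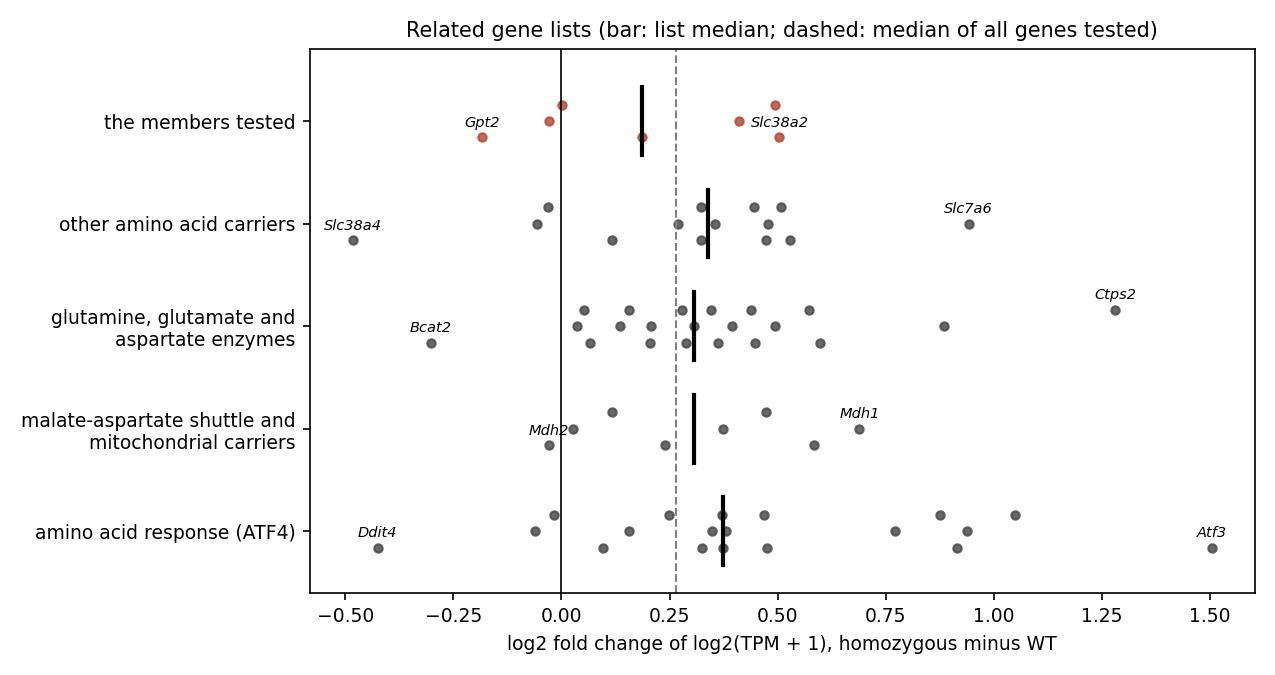
Log2 fold change of log2(TPM + 1), homozygous minus WT, for each tested gene of the 8 (red) and of the 4 related lists (grey), with list medians as bars, the outermost genes named and the median of all genes dashed at 0.26. The 4 list medians lie between 0.31 and 0.37, and the median of the 7 tested genes, at 0.19, lies below the dashed line.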

How the data were processed

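Poly-A selected, stranded RNA-seq libraries of quadriceps muscle were compared between 3 homozygous and 3 WT mice. The authors deposited a table of TPM per Ensembl transcript, with 1 column per library, each summing to 1000000. The submitters' processing notes name FastQC, Trimmomatic, HISAT2, kallisto and mm10, without roles or versions, and no source used here gives the annotation release. All 6 columns matched a library by name, and 0 were left over. TPM was summed per gene symbol and tested as log2(TPM + 1) with limma 3.58.1 (R 4.3.3, trend and robust), genotype as the only term, on 11099 genes and 21165 isoforms that reached 1 TPM in 3 or more libraries, with Benjamini-Hochberg adjustment over all of them and a threshold of 0.05. Slc7a5 was read from the fit without a filter. Positions and isoform structures came from GENCODE M21 (GRCm38), which matched all 32 isoforms without version numbers.

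The named genes were the 8 members, their tested isoforms and, of each list, the 4 with the largest absolute fold change. Atf4, Asns and Mdh2 were added after values were seen. The ratio of Glul to Got1 was not among the ratios planned. The members and lists were chosen with earlier results of these data known. The alternatives were quantile normalization, median centring, no filter, a pseudocount of 0.1, leaving out each library, array weights, the replicate number as a block, mitochondrial transcripts left out, a slow-fibre covariate, a length trend removed (loess, span 0.5, on 11071 genes) and the most abundant isoform in place of the sum. The limma code was tested on simulated data. p-values measure the spread between these mice only.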

Additional observations from a re-analysis of the deposited data

How the results depend on the processing

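The number of the 7 tested genes past the threshold was 0, also in every alternative but array weights, where it was 1 (Slc38a2). Over all genes the count was 0, 810 with array weights, and 0 to 2 with each library left out (2 without WT replicate 1 and 1 without WT replicate 2). Genes at an unadjusted p under 0.05 numbered 2697, of which 97.7% were higher in homozygous muscle. They numbered 986 with quantile normalization (51.1% higher), 917 with median centring (44.2%), 916 with the length trend removed (54.0%), 600 with the slow-fibre covariate, 1212 when mitochondrial transcripts were left out and 3768 of 11099 with array weights. They numbered 1103 to 2810 with each library left out, with 1103 without homozygous replicate 2 and 1392 without homozygous replicate 3. The 9 isoforms past the threshold became 14 with array weights, 5 with median centring, 4 with a pseudocount of 0.1, 3 with quantile normalization, 0 with no filter and 0 to 36 with each library left out (36 without WT replicate 1, 1 without homozygous replicate 3 and 0 without WT replicate 3 or without either of homozygous replicates 1 and 2). Without a filter more isoforms are tested. The cause of these changes in count was not tested in any case. None of the 22 isoforms of the 8 genes passed in any of the 12 alternatives.

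The counts at an unadjusted p under 0.05 were also recomputed under alternatives chosen after seeing the data. For the 7 genes the 3 became 0 with median centring, quantile normalization, the slow-fibre covariate or the length trend removed, 1 with mitochondrial transcripts left out, and 0 to 3 with each library left out (0 without homozygous replicate 2). For the other carriers the 2 became 5 with array weights, 1 with mitochondrial transcripts left out and 1 to 5 with each library left out (5 without WT replicate 1, 4 without homozygous replicate 1, 1 without homozygous replicate 2 or homozygous replicate 3). For the enzymes the 4 became 10 with array weights, 2 with median centring or the length trend removed, 1 with the slow-fibre covariate and 2 to 6 with each library left out (2 without homozygous replicate 2). For the list of the shuttle and other mitochondrial carriers, the 4 became 0 with median centring, quantile normalization, the slow-fibre covariate or the length trend removed. That count was 1 to 4 with each library left out (1 without homozygous replicate 1 or homozygous replicate 2). For the ATF4 list the 8 became 3 with quantile normalization or median centring, 5 with the length trend removed or mitochondrial transcripts left out, 2 with the slow-fibre covariate and 4 to 8 with each library left out (4 without homozygous replicate 2, 5 without homozygous replicate 3 or WT replicate 1). With median centring the list medians became 0.037 (amino acid carriers), 0.0060 (enzymes), 0.0055 (shuttle and other mitochondrial carriers) and 0.073 (ATF4). With quantile normalization they became 0.069, 0.054 and 0.11 for amino acid carriers, enzymes and ATF4.

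Of the 8 genes, Got1, Got2, Slc38a2 and Slc7a5 kept their sign in every alternative. Glul was 0.015 with array weights, 0.35 with the slow-fibre covariate and -0.21 to 0.18 with each library left out (0.18 without WT replicate 3, 0.050 and 0.030 without homozygous replicates 2 and 3). Gpt was -0.075 with array weights, -0.24 with the length trend removed, -0.30 with median centring, -0.0013 with a pseudocount of 0.1, -0.28 with quantile normalization, -0.012 when mitochondrial transcripts were left out, -0.091 with the slow-fibre covariate and -0.15 to 0.23 with each library left out. Gpt2 was 0.23 with the slow-fibre covariate. Slc3a2 was -0.11 with median centring, -0.095 with quantile normalization and -0.023 with the length trend removed. Of the 22 isoforms, 13 kept their sign. Glul isoform ENSMUST00000086199.11 was 0.055 with array weights and -0.19 to 0.17 with each library left out, ENSMUST00000140685.2 was -0.067 with array weights, and ENSMUST00000153134.2 ran from -0.88 to 0.010 with each library left out. Got2 isoform ENSMUST00000211836.1 was -0.097 with median centring and -0.11 with quantile normalization. The Gpt isoform was -0.049 with array weights, -0.27 with median centring, -0.0013 with a pseudocount of 0.1, -0.24 with quantile normalization and -0.15 to 0.23 with each library left out. With each library left out, Gpt2 isoform ENSMUST00000140189.7 ran from -0.40 to 0.13, ENSMUST00000143846.1 from -1.12 to 0.70, Slc3a2 isoform ENSMUST00000205377.1 from -0.19 to 0.91 and ENSMUST00000206895.1 from -0.14 to 0.40. ENSMUST00000206895.1 was -0.15 with median centring and -0.18 with quantile normalization.

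With the replicate number as a block, 0 genes, 0 isoforms and 0 of the 7 genes passed. Same-numbered libraries deviated together at correlations of -0.071, 0.061 and -0.013 across genes, within the range of the other pairs. The deviations were taken from the mean of each genotype, over few libraries. They cannot show whether same-numbered mice shared a litter or a batch.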

Other observations

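The genes whose pattern over the 6 libraries was most like that of Glul were Mthfd1, Grasp and Ndufb10, with root mean square differences of 0.047, 0.048 and 0.053 in centred log2(TPM + 1), among 9202 genes with a similar spread. Those most like Slc7a5 were Lysmd4, Wbscr27 and Rab31, at 0.031, 0.036 and 0.040 among 9142 genes. With 6 libraries, of which WT replicate 3 stands apart, such likeness is a description only.

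The processed pseudogene Got2-ps1, a copy of Got2, gave 0.892, 0.689 and 0.533 TPM for homozygous and 0.510, 0.367 and 0.255 TPM for WT replicates 1 to 3, against 153 TPM or more for Got2 itself. Got1l1, a relative of Got1, was listed at 0 in every library. Glul overlaps Teddm2 on the opposite strand over 285 bases, and Slc7a5 lies within Gm20388 on the opposite strand. Gm20388 gave 7.51, 15.8 and 10.6 TPM for homozygous and 7.47, 10.6 and 11.8 TPM for WT replicates 1 to 3, each above Slc7a5 in the same library. The library kit keeps strand, but no source used here says whether the quantification used it. Without strand, reads from any exon sequence common to Slc7a5 and Gm20388 cannot be told apart. The overlap given is of whole genes with introns, and overlap of exons was not examined.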
